A study of Mus musculus with 6 samples.

Results

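The 8 genes described here are the mouse MEF2 transcription factors Mef2a, Mef2b, Mef2c and Mef2d and the class IIa histone deacetylases Hdac4, Hdac5, Hdac7 and Hdac9, chosen by name from the 54232 genes of the count table. Of these, 7 passed the filter on low counts and were among the 14335 genes tested, and Mef2b did not pass. Tibialis anterior muscle was taken from D51 mice, which lack exon 51 of Dmd, the gene of dystrophin, and from wild-type (WT) mice, all C57BL6 and aged 1 month. Each genotype gave 3 libraries of stranded mRNA, named D51 4, D51 5 and D51 6 and WT 1, WT 2 and WT 3. The labels call them biological replicates but do not say how the animals were related, so the p-values measure the spread between these libraries. The labels say nothing of the sex of the animals, of how the deletion was made or of the number of founder lines.

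MEF2 factors bind A/T-rich sites in the control regions of many muscle genes and act there with myogenic regulators such as myogenin. Class IIa deacetylases bind MEF2 and hold it in a repressed state. Calcium-dependent and related kinases phosphorylate these deacetylases, 14-3-3 proteins then carry them out of the nucleus, and MEF2 is released. In denervated mouse muscle, HDAC4 is known to repress Dach2, which otherwise holds myogenin and the acetylcholine receptor genes low.

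The factors share a DNA-binding domain, the MADS box, so the start of their coding sequence was compared to see how well short reads can tell them apart. The first 180 coding bases, 5′ to 3′, from GENCODE M21 transcripts follow, with capitals at the 61 positions that are not the same in all 4 genes.
Mef2a: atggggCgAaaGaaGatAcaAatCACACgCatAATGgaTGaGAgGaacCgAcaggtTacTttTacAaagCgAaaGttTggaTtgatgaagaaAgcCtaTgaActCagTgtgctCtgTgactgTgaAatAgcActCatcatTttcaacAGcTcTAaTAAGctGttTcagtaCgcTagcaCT
Mef2b: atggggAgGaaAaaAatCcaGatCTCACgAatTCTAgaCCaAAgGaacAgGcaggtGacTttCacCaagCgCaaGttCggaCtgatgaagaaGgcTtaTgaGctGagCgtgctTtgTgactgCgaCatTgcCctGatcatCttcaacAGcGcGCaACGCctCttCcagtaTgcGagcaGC
Mef2c: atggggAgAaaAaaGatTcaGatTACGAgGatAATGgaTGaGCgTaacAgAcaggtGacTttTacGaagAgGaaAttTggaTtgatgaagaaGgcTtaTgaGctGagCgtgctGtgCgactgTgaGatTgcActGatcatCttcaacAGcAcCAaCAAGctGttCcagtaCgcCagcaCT
Mef2d: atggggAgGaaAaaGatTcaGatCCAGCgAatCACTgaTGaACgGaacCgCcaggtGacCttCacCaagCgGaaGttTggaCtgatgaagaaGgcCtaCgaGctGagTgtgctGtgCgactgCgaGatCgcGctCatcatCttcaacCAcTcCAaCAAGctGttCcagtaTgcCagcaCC
The other 119 positions were shared, and 43 of the 61 variable ones were positions at the end of a codon. Mef2c and Mef2d were the most alike over this stretch (82.8% of bases identical) and Mef2a and Mef2b the least alike (73.9%). Even here the differences are dense, with 31 bases as the longest identical run between any pair. Over the full transcripts no stretch of 50 bases was shared between any 2 of the 8 genes, and between 0 and 1.91% of such stretches of a gene occurred in a gene outside the set.

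Total counts lay between 18571038 and 20105817 in D51 libraries and between 15681945 and 21020353 in WT libraries. The factors of the trimmed mean of M-values (TMM), which scale libraries so that most genes have a fold change near 1, were 1.04 to 1.19 in D51 and 0.869 to 0.898 in WT libraries, without overlap. Over all genes tested, log2 fold changes (D51 over WT) had a median of -0.01 under TMM and of 0.34 with scaling to library size alone. A fold change below is on the TMM scale, hence relative to the bulk of genes. Dmd had 47.7, 46.4 and 51.1 CPM (counts scaled to a TMM-adjusted library total of 1000000) in D51 libraries, against 235, 249 and 266 CPM in WT libraries, over all its exons. Its level in D51 was 19.3% of that in WT, and no library went against its label. The 10 myofibre markers summed to between 93376 and 132336 CPM in D51 and between 145367 and 147338 CPM in WT libraries, so both groups carried the labelled tissue. Under TMM 1 of the 10 was called lower, against 11.9% of all genes tested. Without D51 6, 9 of the 10 were called lower, against 2157 of all 14752 genes then tested. In bulk muscle, fewer cells of a type and less RNA per cell cannot be told apart.

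Relative to the bulk of genes, 2 of the 7 tested genes fell in D51 muscle and none rose. Hdac5 fell to 60.3% of its WT level and Mef2d to 77.3%. Across all genes tested, 28% were called in either direction at an edgeR adjusted p under 0.05, 16.1% higher and 11.9% lower, so a share of 2 in 7 is near the background. None of the 7 was higher at an unadjusted edgeR p under 0.05, and DESeq2 and limma-voom also called 0 higher. With library size alone, 2 members (Mef2a and Mef2c) were called higher by edgeR and 1 (Hdac5) lower, against 37.6% and 2.33% of all genes.

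Mef2c, the MEF2 gene with the most abundant transcript in this muscle (GRCm38 chr13:83504034-83667080, plus strand), had 1097, 925 and 1329 CPM in D51 4, D51 5 and D51 6, against 1117, 1075 and 1047 CPM in WT 1, WT 2 and WT 3. D51 5 lay below and D51 6 above all WT libraries, D51 4 lay among them, and their coefficient of variation was 18.2% against 3.26% in WT. Mef2c thus had a log2 fold change of 0.05 ± 0.15 (SE), with a 95% interval from -0.28 to 0.38 and an edgeR adjusted p of 0.828. Under library size alone it was 0.39 (edgeR adjusted p = 0.0204), close to the median shift of all genes. Without D51 6 the sign turned, to -0.10. The order of the D51 libraries by Mef2c was that by summed myofibre markers, which were 97118, 93376 and 132336 CPM in D51 4, D51 5 and D51 6. In WT 1, WT 2 and WT 3 the order was the reverse, with 145367, 146058 and 147338 CPM of summed markers, and every D51 sum was below every WT sum while Mef2c overlapped. The part of that sum in the Mef2c values was not tested.

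Mef2d, a widely expressed factor of the family (GRCm38 chr3:88142372-88172086, plus strand), had 184, 175 and 195 CPM in D51 libraries, against 244, 258 and 214 CPM in WT libraries. Every D51 library was below every WT library. Among all genes tested, 45.5% had groups that did not overlap, 23.8% with D51 higher and 21.7% with D51 lower. The mean was 185 ± 10.2 CPM in D51 and 239 ± 22.4 CPM in WT (SD, n = 3 each), a log2 fold change of -0.37 ± 0.10 (SE), with a 95% interval from -0.61 to -0.14 and an edgeR adjusted p of 0.0296. The call rested on several libraries: it was lost without WT 1 (log2 fold change -0.36, edgeR adjusted p = 0.0727), WT 2 (-0.32, 0.12), D51 4 (-0.37, 0.0813) or D51 5 (-0.32, 0.107). Under library size alone the log2 fold change was -0.02 (edgeR adjusted p = 0.852), below the median of all genes and not called. The summed myofibre markers, at 97118, 93376 and 132336 CPM in D51 4, D51 5 and D51 6, stood in the same order as Mef2d. They too were below every WT library (145367, 146058 and 147338 CPM in WT 1, WT 2 and WT 3), where the order differed. The part of that sum in the Mef2d values was not tested. An antisense gene, 1700113A16Rik, overlaps 8.87% of the Mef2d exon bases and had 2 to 6 counts in D51 and 4 to 6 in WT libraries.

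Mef2a, the factor whose loss in mice is known for cardiac defects (GRCm38 chr7:67231163-67372858, minus strand), had 206, 222 and 252 CPM in D51 libraries and 229, 219.8 and 236 CPM in WT libraries. The groups overlapped, with D51 4 below and D51 6 above all WT libraries and D51 5 among them. Its log2 fold change under TMM was -0.01 ± 0.10 (SE), with a 95% interval from -0.24 to 0.23 and an edgeR adjusted p of 0.958, and under library size alone it was 0.34 (edgeR adjusted p = 0.0152), the size of the shift of all genes. Mef2b, the member known best from germinal centre B cells (GRCm38 chr8:70139711-70167488, plus strand), had 1, 0 and 0 counts in D51 4, D51 5 and D51 6, against 0, 5 and 0 counts in WT 1, WT 2 and WT 3. It was not measurable at this depth, and a library with a count of 0 allows up to 3 counts. The 6 B cell markers summed to between 0.208 and 1.09 CPM in D51 and between 0.573 and 1.04 CPM in WT libraries, and none of them passed the filter.

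Hdac5, a repressor of MEF2 that leaves the nucleus on kinase signals (GRCm38 chr11:102194432-102230166, minus strand), had 29.6, 32.3 and 38.7 CPM in D51 4, D51 5 and D51 6, against 59.6, 56.9 and 50.1 CPM in WT 1, WT 2 and WT 3. The highest D51 library stayed below the lowest WT library. The mean was 33.5 ± 4.68 CPM in D51 and 55.6 ± 4.88 CPM in WT (SD, n = 3 each), a log2 fold change of -0.73 ± 0.12 (SE), with a 95% interval from -1.01 to -0.45 and an edgeR adjusted p of 0.00486. Hdac5 was called lower in each of the 17 alternatives run, library size alone among them (log2 fold change -0.39, edgeR adjusted p = 0.0211). Over these alternatives its log2 fold change ran from -0.85 to -0.32 and its adjusted p between 1.01e-05 and 0.0363. The summed myofibre markers were also below every WT library in each D51 library. They were 97118, 93376 and 132336 CPM in D51 libraries, against 145367, 146058 and 147338 CPM in WT libraries. D51 6 was the highest D51 library in both, and the WT libraries stood in reverse order. The part of that sum in the Hdac5 values was not tested.

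Hdac4, the class IIa member known for its rise in denervated mouse muscle (GRCm38 chr1:91928779-92195699, minus strand), had 31.3, 45.7 and 41.6 CPM in D51 libraries, against 52.6, 55.4 and 45.0 CPM in WT libraries. D51 5 was just above WT 3, and the other D51 libraries were below all WT libraries. Its log2 fold change of -0.37 ± 0.15 (SE), with a 95% interval from -0.71 to -0.03, had the size of that of Mef2d. It did not pass the adjustment over all genes (edgeR adjusted p = 0.0997), and it was -0.02 under library size alone. In the authors' deposited table Hdac4 has a log2 fold change of -0.40 with a false discovery rate of 0.0109, so this gene is called there and not here. The antisense gene Gm26720 overlaps 22.4% of the Hdac4 exon bases and had 0 counts in all 6 libraries. Of its 3538 bases, 3536 lie in Hdac4 exons. The strand setting of the counting is not known, so these 0 counts cannot show how much antisense RNA there was.

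Hdac7, best known from endothelial cells and thymocytes (GRCm38 chr15:97792664-97844502, minus strand), had 19.3, 18.8 and 18.2 CPM in D51 libraries and 24.8, 22.2 and 17.3 CPM in WT libraries. The D51 values were nearly level, within the range of the WT values. Its log2 fold change was -0.19 ± 0.14 (SE) under TMM, with a 95% interval from -0.50 to 0.12 and an edgeR adjusted p of 0.322, and 0.16 under library size alone. The 10 endothelial markers summed to between 369.5 and 462 CPM in D51 and between 529.7 and 617 CPM in WT libraries, with 6 of 10 called lower and none higher under TMM and 0 of 10 called in either direction under library size alone. Over all genes 11.9% were called lower and 16.1% higher under TMM, and 2.33% lower and 37.6% higher under library size alone. The part of endothelial RNA in the Hdac7 values was not tested.

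Hdac9, which also gives rise to a short MEF2 repressor without the deacetylase domain (GRCm38 chr12:34047580-34917095, minus strand), had 14.7, 8.31 and 8.93 CPM in D51 4, D51 5 and D51 6, against 15.7, 5.64 and 5.87 CPM in WT 1, WT 2 and WT 3. A single library in each group, D51 4 and WT 1, stood above the other two. The labels call both of these biological replicate 1. Its log2 fold change of 0.22 ± 0.41 (SE, edgeR adjusted p = 0.717) had a 95% interval from -0.72 to 1.16, the widest interval of the 7 genes, and leaving out 1 library moved it between -0.08 (without D51 4) and 0.88 (without WT 1). Kdr, an endothelial receptor gene, had 71.3, 36.6 and 27.0 CPM in D51 libraries and 108, 49.1 and 47.8 CPM in WT libraries. Only 3 of the 10 endothelial markers (Kdr, Emcn and Cldn5, named after their values were seen) were highest in these same libraries. Among the 3, Emcn was nearly level in WT libraries (18.9, 18.1 and 18.3 CPM). The rest of the 10 were highest in another library in at least 1 group. The summed endothelial markers were highest in D51 5 among D51 libraries (462 CPM, against 454 in D51 4) and in WT 1 among WT libraries (617 CPM). The part of endothelial RNA in the Hdac9 values was not tested.

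**Figure D1:**
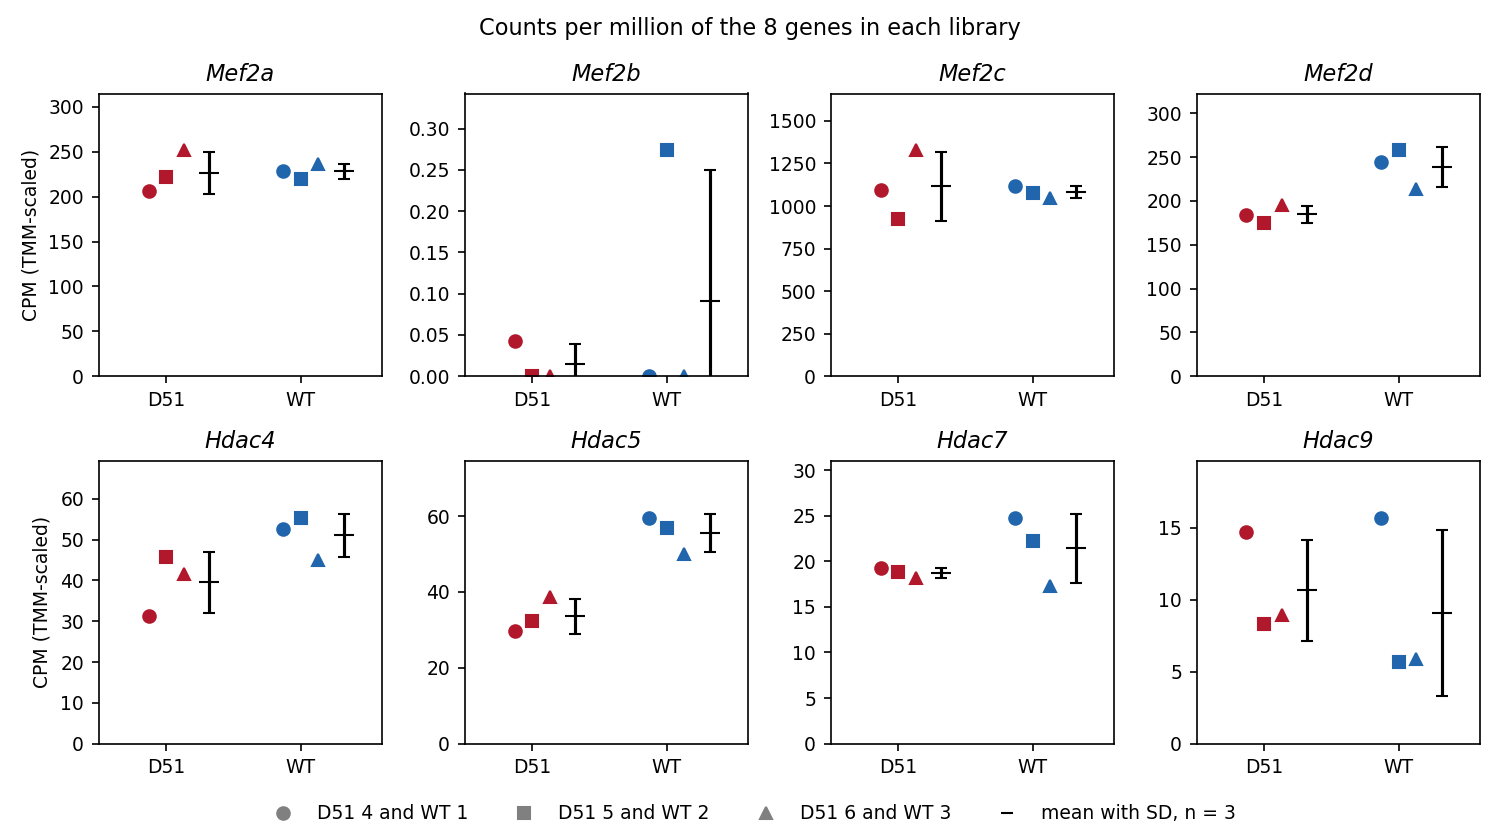
CPM (y axis, TMM-scaled, from 0, a separate scale for each gene) of the 8 genes in the 3 D51 (red) and 3 WT (blue) libraries, with the group mean and SD as black bars, cut at 0 for Mef2b. Hdac5 and Mef2d have every D51 library below every WT library, Mef2c spreads widely in D51 (925 to 1329 CPM), and Hdac9 is high in D51 4 and WT 1.

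**Figure D2:**
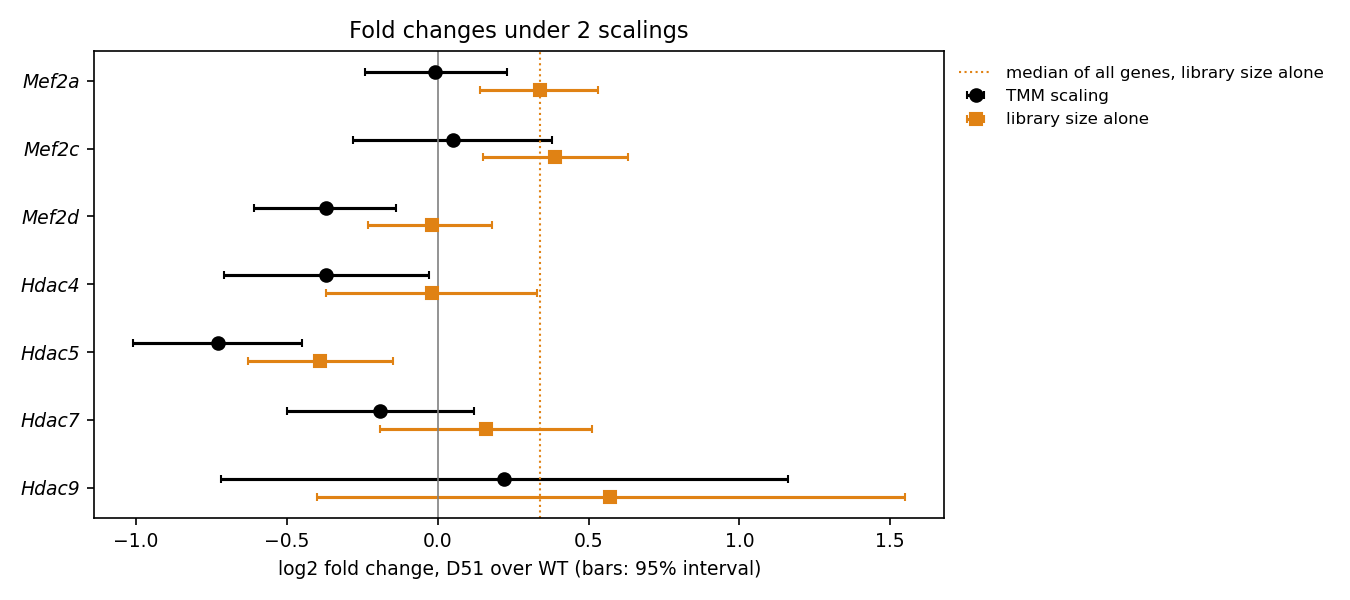
Log2 fold change, D51 over WT (x axis), of the 7 tested genes with its 95% interval under TMM scaling (black) and library size alone (orange), with the median of all genes under library size alone (0.34) as a dotted line. Hdac5 lies below 0 under both, at -0.73 and -0.39, and the interval of Mef2d leaves out 0 under TMM scaling (-0.37) and holds it under library size alone (-0.02).

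Levels were compared between genes as CPM per kb of exon length. In D51 libraries the order was Mef2c (71.1 ± 12.9 CPM per kb, SD, n = 3), Mef2d (30.8 ± 1.71), Mef2a (15.5 ± 1.59), Hdac5 (3.82 ± 0.53), Hdac7 (2.78 ± 0.08), Hdac4 (2.50 ± 0.47), Hdac9 (0.73 ± 0.24) and Mef2b at or near 0. In WT libraries Mef2c had 68.7 ± 2.24 CPM per kb, Mef2d 39.9 ± 3.74, Mef2a 15.5 ± 0.54, Hdac5 6.33 ± 0.56, Hdac4 3.23 ± 0.34, Hdac7 3.17 ± 0.57 and Hdac9 0.62 ± 0.39. Hdac4 and Hdac7 had overlapping ranges in both genotypes and changed places between them, and the other neighbours did not overlap in either. In WT muscle Mef2c ranked 417th by CPM per kb among the 14335 genes, within the top 2.91%, and Hdac5 ranked 4203rd, within the top 29.3%.

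The make-up of each family was then taken within each library, a quantity that no scaling between libraries can move. Mef2c made up 60.9%, 57.0% and 62.9% of the summed MEF2 CPM per kb in D51 4, D51 5 and D51 6, against 55.7%, 54.0% and 56.2% in WT 1, WT 2 and WT 3. Mef2d made up 26.8%, 28.3% and 24.3% in D51 libraries, against 32.0%, 34.0% and 30.2% in WT libraries. Neither pair of groups overlapped: the share of Mef2c differed by 4.97 points and that of Mef2d differed by -5.63 points (D51 minus WT). With 3 libraries a group an exact two-sided permutation test cannot give a p below 0.1, which both reached (0.2 adjusted over the 8 shares). Mef2a kept 13.2 ± 1.26% in D51 and 12.5 ± 0.90% in WT (SD, n = 3 each), with overlap.

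Among the class IIa deacetylases, Hdac5 made up 36.6%, 37.1% and 42.6% in D51 4, D51 5 and D51 6, against 45.7%, 47.5% and 49.6% in WT 1, WT 2 and WT 3. Hdac7 made up 31.0%, 28.1% and 26.1% in D51 libraries, against 24.7%, 24.0% and 22.2% in WT libraries. The share of Hdac5 thus differed by -8.82 points and that of Hdac7 by 4.76 points (D51 minus WT), again with no overlap (exact two-sided permutation p = 0.1 each, 0.2 adjusted over the 8 shares). Hdac4 held 25.3 ± 3.82% in D51 and 24.3 ± 1.69% in WT, and Hdac9 held 7.49 ± 2.93% in D51 and 4.50 ± 2.37% in WT (SD, n = 3 each), both with overlap. Shares of a family sum to 100%, so a lower share of a member raises the others.

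**Figure D3:**
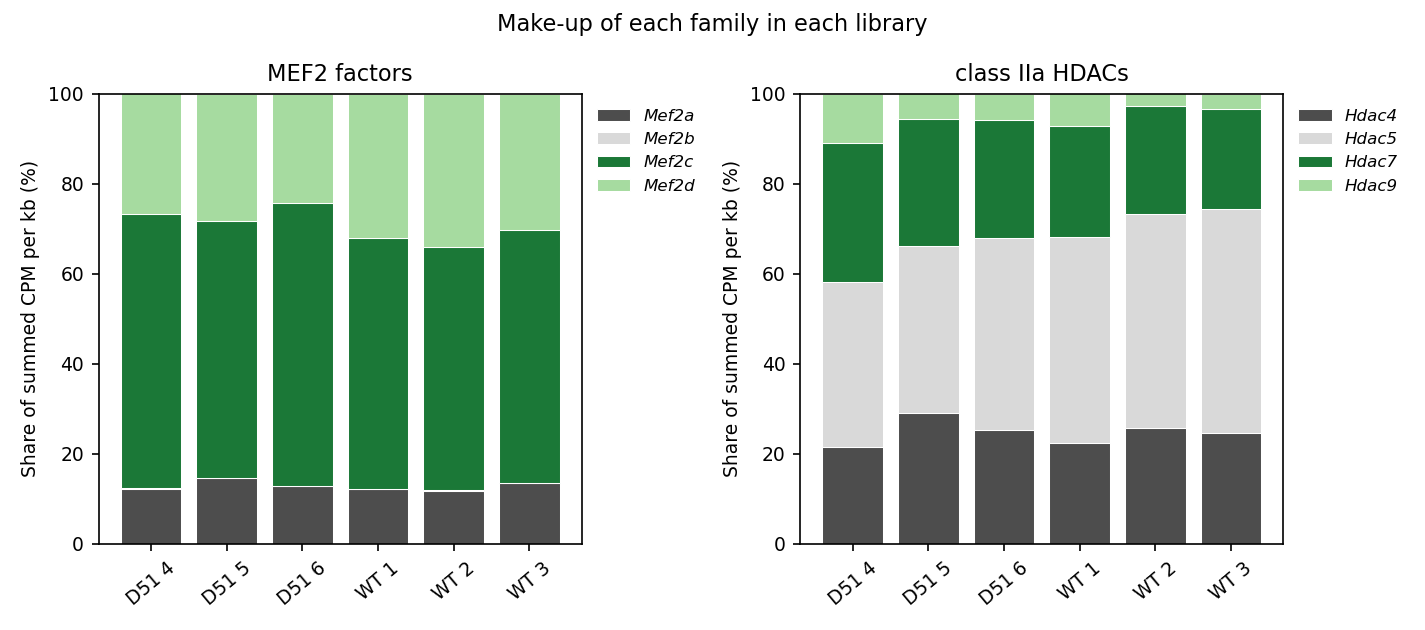
Share (y axis, percent of the summed CPM per kb) of each gene in the MEF2 family (left) and the class IIa deacetylases (right) in each of the 6 libraries, D51 left of WT. Mef2d is 24.3 to 28.3% in D51 and 30.2 to 34.0% in WT, and Hdac5 is 36.6 to 42.6% in D51 and 45.7 to 49.6% in WT.

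The summed level of the class IIa deacetylases was 9.20, 9.92 and 10.3 CPM per kb in D51 libraries, against 14.9, 13.7 and 11.5 CPM per kb in WT libraries, without overlap (exact two-sided permutation p = 0.1, the smallest possible). The MEF2 factors summed to 115, 103 and 134 CPM per kb in D51 libraries and 128, 127 and 118 CPM per kb in WT libraries, with overlap (exact two-sided permutation p = 0.6). The ratio of MEF2 to class IIa deacetylase transcripts was 12.5, 10.4 and 13.0 in D51 libraries, against 8.58, 9.27 and 10.3 in WT libraries. Within a library this ratio is also free of the scaling, and its groups came close but did not overlap. The ratio of Mef2c to Hdac5 stood further apart, at 20.7, 16.0 and 19.2 in D51 libraries, against 10.5, 10.5 and 11.7 in WT libraries. The 10 macrophage markers, all called higher, summed to between 359 and 611 CPM in D51 and between 53 and 102 CPM in WT libraries, and the 8 fibroblast and progenitor markers, 5 of them called higher, to between 3287 and 3681 CPM in D51 and between 1221 and 2002 CPM in WT libraries. The 8 smooth muscle and pericyte markers, 4 of them called lower (2 under library size alone), summed to between 749 and 870.1 CPM in D51 and between 1161 and 1291 CPM in WT libraries. Over all genes 16.1% were called higher and 11.9% lower under TMM, and 2.33% lower under library size alone. The macrophage markers Trem2 and Cx3cr1 had 3 to 15 counts in each WT library and passed the filter through their D51 counts. The part of macrophages, fibroblasts and progenitors, smooth muscle cells and pericytes in the family sums was not tested.

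The promoters of the 2 genes called lower are shown because Hdac5 holds a match to the binding site of MEF2 beside its start and Mef2d does not. The 250 bases before each start (RefSeq, GRCm38.p6) follow, 5′ to 3′ on the strand of the gene, at chr11:102230173-102230422 on the minus strand for Hdac5 and chr3:88142122-88142371 on the plus strand for Mef2d. Capitals mark the match to the MEF2 consensus.
Hdac5: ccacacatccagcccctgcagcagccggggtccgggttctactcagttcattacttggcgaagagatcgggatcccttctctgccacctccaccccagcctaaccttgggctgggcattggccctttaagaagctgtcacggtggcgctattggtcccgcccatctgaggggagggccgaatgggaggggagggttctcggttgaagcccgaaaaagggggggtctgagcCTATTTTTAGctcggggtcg
Mef2d: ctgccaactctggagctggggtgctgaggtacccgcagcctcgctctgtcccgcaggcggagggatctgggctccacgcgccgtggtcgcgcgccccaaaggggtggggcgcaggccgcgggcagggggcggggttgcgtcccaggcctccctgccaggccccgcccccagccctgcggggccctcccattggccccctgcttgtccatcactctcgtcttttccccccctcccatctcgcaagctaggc
The match in Hdac5, CTATTTTTAG, begins 20 bases before the start. All 8 genes had windows in the RefSeq table, 14 in all, each with 250 bases before and 50 after a start. Matches to the MEF2 consensus, searched on both strands, occurred in 2 of the 14 windows, those of Hdac5 and of Mef2a, where the match CTAAAAATAG spans the start. Of 32851 mouse windows of the same length, 3.19% held a match. The E-box CANNTG, the site type of myogenin, which reads the same on both strands, occurred in 8 of the 14 windows and in 72.3% of all windows, and the Mef2d window held neither. A match describes the letters of a window and does not show binding.

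Kinases that phosphorylate class IIa deacetylases moved in both directions. This gene list and those below were drawn up with earlier results of these data known, so counts within them are descriptions. Of the 14 tested, 2 were called higher and 3 lower, with a median log2 fold change of -0.16, against 16.1% higher, 11.9% lower and a median of -0.01 over all genes. Sik1, a salt-inducible kinase, had 43.6, 54.0 and 40.2 CPM in D51 libraries, against 19.6, 21.6 and 32.8 CPM in WT libraries (log2 fold change 0.90 ± 0.20, SE, edgeR adjusted p = 0.0135). Camk2d, a subunit of calcium/calmodulin kinase II, had 99.8, 83.3 and 98.7 CPM in D51 libraries, against 78.8, 71.2 and 73.8 CPM in WT libraries (0.33 ± 0.10, 0.04). Both genes had every D51 library above every WT library. The subunit Camk2g had 159, 152 and 192 CPM in D51 libraries, against 237, 231 and 211 CPM in WT libraries (log2 fold change -0.43 ± 0.11, SE, edgeR adjusted p = 0.0252). Both other called kinases, Mark2 and Sik2, had log2 fold changes of -0.30 and -0.34. The subunit Camk2a, at 285 ± 77.4 CPM in D51 and 408 ± 61.8 CPM in WT (SD, n = 3 each), was not called, and neither was Camk2b. Without 1 library the higher calls ran from 0 (without WT 2) to 2 and the lower calls from 0 (without WT 1, WT 2, D51 4 or D51 5) to 3. That of Sik1 was lost without WT 2 (0.81), that of Camk2d without any library but D51 5 (0.29 to 0.42 over the 6 left-out libraries), those of Camk2g (-0.54 to -0.36) and Mark2 (-0.36 to -0.25) without WT 1, WT 2, D51 4 or D51 5, and that of Sik2 (-0.36 to -0.31) without any of the 6. Under library size alone 4 of the 14 were called higher and none lower, against 37.6% and 2.33% of all genes. The median was then 0.19 beside 0.34 for all genes.

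Some genes of 14-3-3 proteins, which hold phosphorylated deacetylases in the cytoplasm, rose. Of 13 corepressor and 14-3-3 genes tested, 4 were called higher, all of them 14-3-3 genes, and 1 lower. Over all genes 16.1% were called higher and 11.9% lower. Ywhaz had 119.9, 126 and 99.6 CPM in D51 libraries, against 66.2, 67.4 and 78.6 CPM in WT libraries (log2 fold change 0.70 ± 0.12, SE, edgeR adjusted p = 0.00502). Ywhah had 61.7, 60.4 and 49.6 CPM in D51 libraries, against 36.2, 33.0 and 33.9 CPM in WT libraries (0.74 ± 0.11, 0.00279). Ywhaq followed with a log2 fold change of 0.78 and Ywhab with 0.39. Calls of the first 3 held without any single library, and that of Ywhab was lost without WT 1, WT 2, D51 4 or D51 5 (0.35 to 0.46). The more abundant Ywhae (429 ± 27.7 CPM in D51 and 413 ± 5.40 CPM in WT) and Ywhag (241 ± 16.0 CPM in D51 and 272 ± 18.8 CPM in WT, SD, n = 3 each) were not called. Gps2, a subunit of the NCoR/SMRT corepressor complex, fell (log2 fold change -0.54, edgeR adjusted p = 0.00647, and -0.19 with no call under library size alone). Under library size alone 6 of the 13 were called higher, Ywhae (0.40, edgeR adjusted p = 0.00506) among them, and none lower. Over all genes 37.6% were then called higher and 2.33% lower. The list's medians were 0.06 under TMM and 0.40 under library size alone.

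Among genes of signals and coactivators that act on MEF2, 8 of the 19 tested were called lower relative to the bulk of genes. Only 1 was called higher, and over all genes 11.9% were called lower and 16.1% higher. The list's median log2 fold change was -0.24. Under library size alone none was lower and 4 were higher, against 2.33% and 37.6% of all genes. The median was then 0.11 beside 0.34 for all genes. Ppp3cb, a catalytic subunit of calcineurin, had 279, 266 and 355 CPM in D51 libraries, against 407, 409.9 and 413 CPM in WT libraries (log2 fold change -0.45 ± 0.13, SE, edgeR adjusted p = 0.0302). Carm1, an arginine methyltransferase that acts with MEF2, had 44.5, 41.7 and 55.4 CPM in D51 libraries, against 66.6, 69.8 and 69.1 CPM in WT libraries (-0.54 ± 0.12, 0.0118). In both, all 3 D51 libraries lay below the WT libraries and D51 6 was nearest to them. The count of 8 fell to 0 without WT 2, 2 without D51 5, 3 without D51 4 and 4 without WT 1 or WT 3, and it was 10 without D51 6. The acetyltransferase genes Kat2b (-0.43), Ep300 (-0.50) and Crebbp (-0.34) and the p38 kinase gene Mapk12 (-0.34) were also called lower. Calls were lost without WT 2 for Carm1 (-0.53), without WT 2, WT 3, D51 4 or D51 5 for Kat2b (-0.55 to -0.34), without WT 1, WT 2, D51 4 or D51 5 for Mapk12 (-0.41 to -0.29), and without any library but D51 6 for Ppp3cb (-0.59 to -0.36), Ep300 (-0.65 to -0.35) and Crebbp (-0.42 to -0.26). Ppp3ca (281 ± 18.3 CPM in D51 and 331 ± 7.52 CPM in WT) and Ppp3r1 (206 ± 11.8 CPM in D51 and 195 ± 6.98 CPM in WT, SD, n = 3 each), both calcineurin subunits as well, were not called, and under library size alone Ppp3r1 was called higher (0.43, edgeR adjusted p = 0.00561). The remaining lower calls, named after their values were seen, were the calcineurin subunit gene Ppp3cc (-0.41, edgeR adjusted p = 0.0104) and the p38-activating kinase gene Map2k6 (-0.66, 0.0159). The 1 member called higher was Mamstr, a coactivator of MEF2 named here after its values were seen, with 24.9, 28.9 and 25.0 CPM in D51 libraries, against 17.9, 15.3 and 15.1 CPM in WT libraries (0.70 ± 0.11, edgeR adjusted p = 0.00407). The 10 myofibre markers had a median log2 fold change of -0.40. They summed to between 93376 and 132336 CPM in D51 and between 145367 and 147338 CPM in WT libraries. The part of that sum in the values of this list was not tested.

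Among genes known to depend on MEF2 in muscle, calls went in both directions under TMM. Of 22 listed, 21 were tested and Rtl1 was not, and 2 were called higher and 4 lower, with a median of 0.08. Over all genes 16.1% were called higher and 11.9% lower. Under library size alone 10 were called higher and none lower, against 37.6% and 2.33% of all genes. The median was then 0.43 beside 0.34 for all genes. Without 1 library the lower calls ran from 1 (without WT 2) through 2 (without WT 3 or D51 5) to 6 (without D51 6), and the higher calls from 2 to 3. Myog, the gene of myogenin, had 30.9, 52.4 and 24.1 CPM in D51 libraries, against 2.99, 3.18 and 1.65 CPM in WT libraries (log2 fold change 3.75 ± 0.35, SE, edgeR adjusted p = 0.000589). Tnnc1, the slow and cardiac troponin C gene, had 10.7, 6.91 and 14.4 CPM in D51 libraries, against 2.16, 3.62 and 2.22 CPM in WT libraries (1.99 ± 0.32, 0.00398). Both were far apart between the groups. On the other side, Mb, the gene of myoglobin, had 1385, 1333 and 958 CPM in D51 libraries, against 1941, 2624 and 2024 CPM in WT libraries (log2 fold change -0.84 ± 0.18, SE, edgeR adjusted p = 0.0128, lost without WT 2 at -0.70). Slc2a4, the insulin-responsive glucose transporter gene, had 354, 298 and 389.7 CPM in D51 libraries, against 540.4, 583 and 487 CPM in WT libraries (-0.63 ± 0.13, 0.01). Ppargc1a, a coactivator of mitochondrial genes, and Cpt1b, of fatty acid import into mitochondria, had log2 fold changes of -0.45 and -0.51, calls that were lost without WT 2, WT 3, D51 5 or D51 6 (-0.57 to -0.36) and without any library but WT 1 (-0.60 to -0.41). None of these 4 was called under library size alone. The abundant Ckm (-0.49, edgeR adjusted p = 0.0702) and Xirp2 (-0.48, 0.072) were not called. Ckm is also among the 10 myofibre markers, which summed to between 93376 and 132336 CPM in D51 and between 145367 and 147338 CPM in WT libraries. The part of that sum in the lower values of this list was not tested. The 8 satellite cell and myoblast markers, Myog among them and 4 of them called higher, summed to between 2653 and 2881 CPM in D51 and between 2365 and 2715 CPM in WT libraries. Most of that sum is Des, which was not called, and the other 7 markers summed to 138.71, 170.04 and 113.95 CPM in D51 libraries, against 53.15, 53.20 and 50.02 CPM in WT libraries. Mymk, among those called higher, had 3, 5 and 10 counts in WT 1, WT 2 and WT 3 and passed the filter through its D51 counts. The part of satellite cells and myoblasts in the Myog values was not tested.

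The axis of HDAC4, Dach2 and myogenin held large changes in both directions. Its gene list too was drawn up with earlier results of these data known, so counts within it are descriptions. Of 12 genes tested, 6 were called higher, Myog counted again among them, and 1 lower. Over all genes 16.1% were called higher and 11.9% lower. The list's median log2 fold change was 0.63. Under library size alone 9 were called higher and 1 lower, against 37.6% and 2.33% of all genes. The median was then 0.99 beside 0.34 for all genes. Dach2, the repressor of this axis, had 1.33, 1.14 and 0.99 CPM in D51 libraries, against 9.46, 13.5 and 11.5 CPM in WT libraries (log2 fold change -3.31 ± 0.20, SE, edgeR adjusted p = 0.000255). Chrna1, the alpha subunit of the muscle acetylcholine receptor, had 73.1, 72.6 and 69.7 CPM in D51 libraries, against 13.8, 14.6 and 15.1 CPM in WT libraries (2.31 ± 0.08, 2.77e-05). The receptor genes Chrnb1 (0.74) and Chrnd (1.84) and the transcription factor gene Runx1 (2.95) were also called higher by edgeR, and each of these calls held without any single library and under library size alone. The fetal subunit gene Chrng, likewise called higher and named here after its values were seen, had 169, 161 and 187 counts in D51 4, D51 5 and D51 6, against 2, 1 and 5 counts in WT 1, WT 2 and WT 3. Chrng thus passed the filter only through its D51 counts, and its call, 1 of the 6, is a description and no separate support. The ubiquitin ligase genes Fbxo32 (279 ± 119 CPM in D51 and 430 ± 79.2 CPM in WT) and Trim63 (203 ± 65.1 CPM in D51 and 230.5 ± 63.3 CPM in WT, SD, n = 3 each) were not called. Hdac4 itself, at 77.4% of its WT level and not called, was not among the genes called higher. All 10 macrophage markers and 4 of the 8 satellite cell and myoblast markers were called higher as well. Of these, Trem2, Cx3cr1 and Mymk had 3 to 15 counts in each WT library and passed the filter through their D51 counts. The part of macrophages, satellite cells and myoblasts in the values of the axis was not tested.

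**Figure D4:**
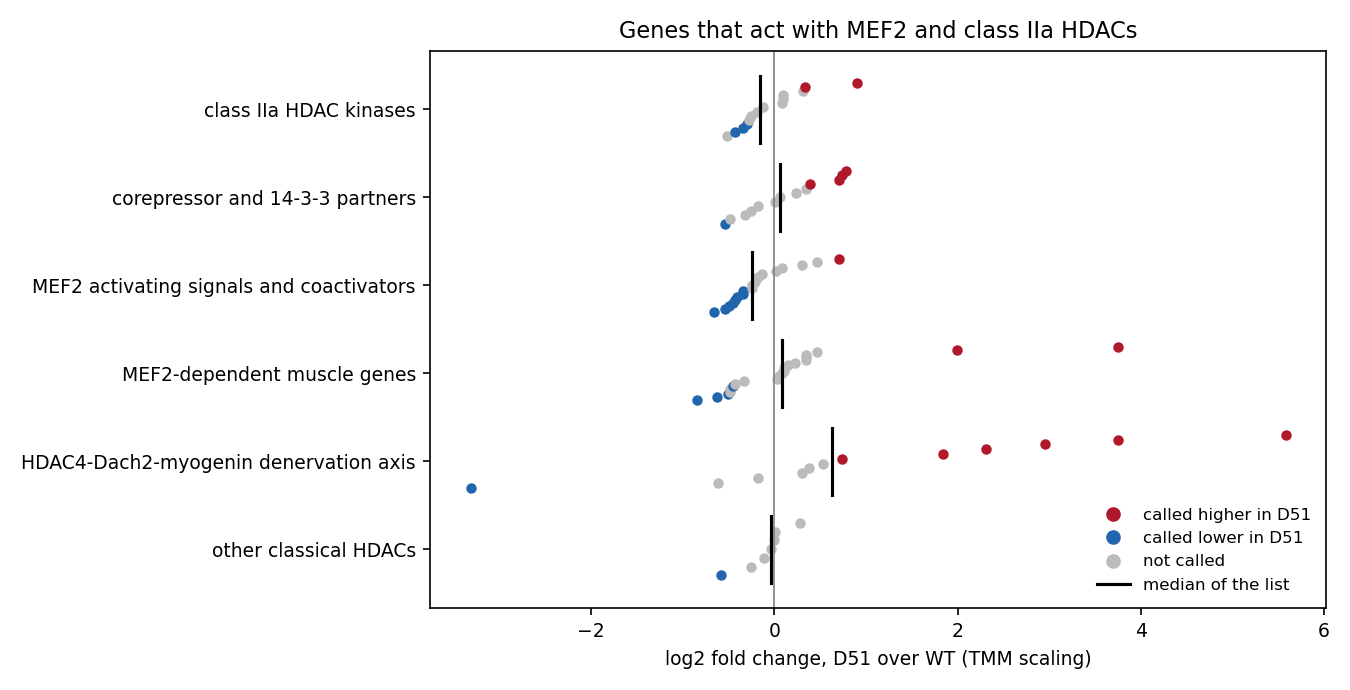
Log2 fold change, D51 over WT, TMM scaling (x axis), of the tested genes of 6 lists (1 row a list), with genes called higher in red, called lower in blue and not called in grey, and the list's median as a black line. The list of MEF2 activating signals and coactivators holds 8 genes called lower and 1 called higher, while the denervation axis runs from Dach2 at -3.31 to Chrng at 5.58. Chrng had 1 to 5 counts in WT libraries and passed the filter through its D51 counts.

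Of the 7 other classical deacetylases, all tested, edgeR called none higher and 1 lower, against 16.1% and 11.9% of all genes. Their median log2 fold change was -0.04. Hdac11 had 4.19, 3.72 and 3.58 CPM in D51 libraries, against 5.64, 5.04 and 6.52 CPM in WT libraries (log2 fold change -0.58 ± 0.17, SE, edgeR adjusted p = 0.0357), a call lost without any 1 of the 6 libraries (-0.67 to -0.49) and under library size alone (-0.22). Under library size alone edgeR called 1 of the 7 higher, Hdac2 (0.34), and none lower, against 37.6% and 2.33% of all genes. Hdac3, the enzyme that class IIa proteins recruit, had 45.4 ± 0.96 CPM in D51 and 54.5 ± 4.19 CPM in WT (SD, n = 3 each, log2 fold change -0.26, edgeR adjusted p = 0.0543). Hdac2 had 64.9 ± 2.66 CPM in D51 and 65.1 ± 2.89 CPM in WT (SD, n = 3 each).

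The genes whose log2 CPM followed 6 of the members most closely over the 6 libraries were named among 9700 genes with a mean of at least 5 CPM. For Hdac5 they were Cyb5d2 and Zcrb1 (Pearson r = 0.998 for both), and for Mef2d they were Ldb3, a Z-disc protein gene (r = 0.994), and Kansl3 (r = 0.991). For Mef2c they were Tex10 (r = 0.989) and Casq1, the gene of the calcium store protein calsequestrin (r = 0.981). For Mef2a they were Vps41 (r = 0.989) and Ap4e1 (r = 0.976), for Hdac4 Zfp212 (r = 0.992) and Sf1 (r = 0.991), and for Hdac9 Nck2 (r = 0.990) and Mpzl1 (r = 0.988). The libraries of a group share genotype and similar TMM factors, and the best of 9700 genes over 6 points is high by selection, so these are descriptions.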

How the data were processed

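The 6 libraries were tibialis anterior mRNA of 3 D51 and 3 WT mice, made with a stranded mRNA kit per the labels. Raw counts of reads for each gene were deposited by the authors (featureCounts 1.6.0 on GRCm38, per the submitters' processing notes), which were used as they are. No source used here gives the aligner, the annotation release or the strand setting of the counting, and reads of overlapping antisense genes cannot be told apart. The authors also deposited RPKM values, used only as an alternative, and a table of their comparison with log2 fold changes, p-values and false discovery rates, of which values are printed as theirs. The authors' deposited scores and -log10 p-values were not used.

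All genes were filtered by filterByExpr, scaled by TMM and tested with edgeR 4.0.16 (R 4.3.3, glmQLFit and glmQLFTest), with p-values adjusted by Benjamini and Hochberg over the 14335 genes tested and called under 0.05. The SE is the log2 fold change divided by the root of F. CPM per kb uses the deposited exon lengths, which matched GENCODE M21. Shares, sums and ratios were tested by two-sided exact permutation. Likeness used log2(CPM + 0.5). The likeness result of Hdac7 is not reported here. Alternatives used DESeq2 1.42.0, limma 3.58.1 and log2(RPKM + 0.1 or 1). The fit was tested on simulated data. Pathway genes were named as every called member of a list, up to 6 by mean CPM, and up to 2 not called. Members and lists were chosen with earlier results of these data known. Replicates of a genotype differed by 8.08 to 42.9 times the sampling variance.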

Additional observations from a re-analysis of the deposited data

How the results depend on the processing

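Hdac5 was called lower in all 17 alternatives. Hdac4 was called in none, its adjusted p ranging between 0.0526 and 0.929. The results turned on the scaling. With library size alone, limma-trend on RPKM with a pseudocount of 0.1 and the same with 1, genes called higher numbered 5394, 5222 and 5071 and genes called lower 334, 309 and 308. The genes tested numbered 14335, 13958 and 13958. In each of the 3 settings, 2 of the 8 members were called higher and 1 lower. The log2 fold changes were then 0.34, 0.33 and 0.32 for Mef2a, 0.39, 0.38 and 0.38 for Mef2c, -0.02 in each for Mef2d, and 0.16, 0.17 and 0.13 for Hdac7. In the same order, signs turned for Mark2 (0.05, 0.05 and 0.04), Sik2 (0.02, 0.01 and 0.01), Camk2b (0.06, 0.07 and 0.07), Ywhag (0.17 in each), Mapk12 and Crebbp (0.01 in each), Ppp3ca (0.11 in each), Trim63 (0.16, 0.15 and 0.15), Hdac2 (0.34, 0.34 and 0.32) and Hdac3 (0.09, 0.09 and 0.08). RPKM are divided by the library total, so these settings share their scaling. Without a filter, Mef2a and Hdac2 were each at 0.01, and with a stricter one Hdac2 was at 0. Without division by gene length the share of Mef2d differed by -3.24 points.

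Leaving out 1 library gave 1346 to 2662 genes higher (1346 without WT 2) and 663 to 2157 lower (663 without WT 2, 986 without D51 4, 759 without D51 5), with 0 to 0 members higher and 1 to 2 lower. The genes tested then numbered 14490 to 14837. Log2 fold changes ran from -0.09 to 0.06 for Mef2a, -0.1 to 0.18 for Mef2c, -0.45 to -0.32 for Mef2d, -0.08 to 0.88 for Hdac9 (-0.04 without WT 2 and -0.01 without WT 3), -0.38 to 0.06 for Trim63 and -0.05 to 0.03 for Hdac2. Signs turned to 0.01 without WT 3, 0.06 without D51 4 and 0.02 without D51 5 for Mef2a, to 0.02 without WT 3 and 0.06 without D51 4 for Trim63, and for Hdac2 to 0.01 without WT 1, 0 without WT 3 or D51 4, and 0.03 without D51 5. The cause was not tested. Deviations of same-numbered libraries from their group means correlated at 0.4 (D51 4 and WT 1), 0.016 and 0.077. With so few libraries these values cannot decide whether the numbers pair the samples. The main fit did not treat them as pairs. A fit with the replicate number as a block left 2 members lower (Hdac5 at an edgeR adjusted p of 0.00555, Mef2d at 0.0457) and none higher, with Hdac9 at 0.32 (0.193).

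With 3 libraries a group, exact tests of shares and ratios cannot go below 0.1, and Mef2b lies at the limit of the depth.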

Other observations

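In the authors' deposited table, which covers 13958 genes, 2666 are higher and 2629 lower at a false discovery rate under 0.05. Of the 8 genes described here, Mef2b is not listed there. The authors' deposited table gives Hdac5 a log2 fold change of -0.76 (false discovery rate 1.73e-04), Mef2d -0.41 (0.0045) and Hdac4 -0.40 (0.0109). It gives Mef2a -0.04, Mef2c 0.02, Hdac7 -0.23 and Hdac9 0.19, none of them under 0.05.

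Ratios between the genes need no scaling between libraries. The first 3 below have Mef2d or Hdac5, the 2 genes called lower, as denominator. They come from the same counts as those calls and add no separate support. Mef2c over Mef2d, as CPM per kb, was 2.28, 2.01 and 2.59 in D51 libraries, against 1.74, 1.59 and 1.86 in WT libraries. Mef2a over Mef2d was 0.458, 0.518 and 0.527 in D51 libraries, against 0.382, 0.347 and 0.449 in WT libraries. Hdac4 over Hdac5 was 0.587, 0.785 and 0.597 in D51 libraries, against 0.490, 0.541 and 0.499 in WT libraries. In these 3 ratios every D51 library was above every WT library, with an exact permutation p of 0.1 each, the smallest possible, and 7 such ratios were computed. Mef2c over Mef2a, which holds neither Mef2d nor Hdac5, overlapped (exact permutation p = 0.6). It was 4.97, 3.89 and 4.92 in D51 libraries and 4.55, 4.57 and 4.15 in WT libraries. Mef2d over Hdac5 was 9.11, 7.94 and 7.40 in D51 libraries, against 6.02, 6.64 and 6.27 in WT libraries, without overlap.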
